A study of Oryza sativa with 4 samples.

Results

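Among the 91960 features in which reads were counted in rice seedlings, 880 carry an identifier of the kind Novel00143 in place of a rice locus identifier. They are called unannotated loci here by that identifier. The 722 of them with a sum of 40 reads or more over the 4 libraries are described here. They were found by this identifier and this sum alone, and they make up 0.785% of all features and 82.0% of these 880. Of the 158 loci under the threshold, 132 had 1 to 39 reads and 26 had none. Features whose identifier begins with OS, the rice locus identifiers, served as the comparison, with 23056 of 37830 at 40 reads or more.

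The libraries were made from seedling RNA of japonica rice (Oryza sativa) harvested at an age of 7 days from a cycle of 14 h light and 10 h dark. Wild type is the line SN9816 and the mutant is the line bta1-1, each with 2 biological replicates per the design text. The sources used here do not name the background of bta1-1, its lesion or the number of plants in a library, so the effect of the mutation and that of other differences between the lines cannot be told apart. In RNA from seedlings, fewer cells of a type and less RNA per cell cannot be told apart. P-values measure the spread between these samples only.

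A genome annotation lists the genes that were known when it was made, and reads that gather elsewhere can be assembled into further transcribed loci. In plants such loci are known to include long non-coding RNAs, transcribed transposable elements, unrecognised protein-coding genes and unlisted ends of known genes. The genomes of rice lines also differ in which stretches they hold, and a gene can be transcribed in one line and lacking in another. The files give the unannotated loci no position, description or sequence, so the label "outside the annotation" rests on the identifier alone, and no function is assigned to any of them here.

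The libraries held 15093108 to 20334851 counted reads. LAZY1 (OS11G0490600) is a shoot gravitropism gene. BTA1 is known as an allele of it from outside the sources used here, which do not name the lesion of bta1-1. LAZY1 had 767 and 461 reads in the wild type libraries and 70 and 89 in bta1-1. Its log2 fold change was -2.93 (SE 0.26, adjusted p = 0.000445 by edgeR's quasi-likelihood test over all features, as for each adjusted p here). Replicates differed at the leaf gene and the root gene looked at, each the only one of its kind. The Rubisco small subunit OS12G0274700, a leaf gene, stood at 1450 and 2460 CPM in wild type and at 2250 and 670 CPM in bta1-1. The nicotianamine synthase OS03G0307300, a root iron uptake gene, stood at 563 and 300 CPM against 326 and 487 CPM. Neither was called, and their part in the results below was not tested.

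Unannotated loci were close in length to OS features and lower in level. Length is the feature length behind the FPKM values, obtained by dividing counts by FPKM (fragments per length and library size). The sources used here do not say whether it is that of a transcript. The median was 1367 bases for unannotated loci, with quartiles at 965.5 and 1894.5 bases, and 1483 bases for OS features, with quartiles at 1002 and 2057. At the short end, 26 unannotated loci (3.6%) were under 500 bases, against 3.71% of OS features, and 165 (22.9%) had 2000 bases or more, against 26.9%. No unannotated locus with 40 reads was shorter than 206 bases, whereas OS features began at 97. At the long end, unannotated loci reached 14022 bases and OS features 7851.

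The median level of an unannotated locus, as mean FPKM over the 4 libraries, was 1.91, against 9.25 for OS features held to the same read threshold. Levels under 1 FPKM were found at 189 loci (26.2%), from 1 to under 10 at 455 (63.0%), and of 10 or more at 78 (10.8%). Among OS features 48.0% reached 10 FPKM. By library the median unannotated level was 1.98 and 1.98 FPKM in wild type and 1.72 and 1.86 FPKM in bta1-1, so the gap to OS features, whose library medians ran from 8.48 to 9.92 FPKM, was present in each library. Because a locus needed 40 reads to enter, both medians leave out features below that level, and the unannotated median was 3.19 FPKM at a threshold of 100 reads and 1.56 at 20. The median level was 3.67 FPKM for loci under 500 bases and 1.8 FPKM for loci of 2000 bases or more. OS features of these lengths had 12.7 and 5.45 FPKM. A short locus needs a higher FPKM than a long one to reach 40 reads, so this order by length follows in part from the threshold.

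**Figure D1:**
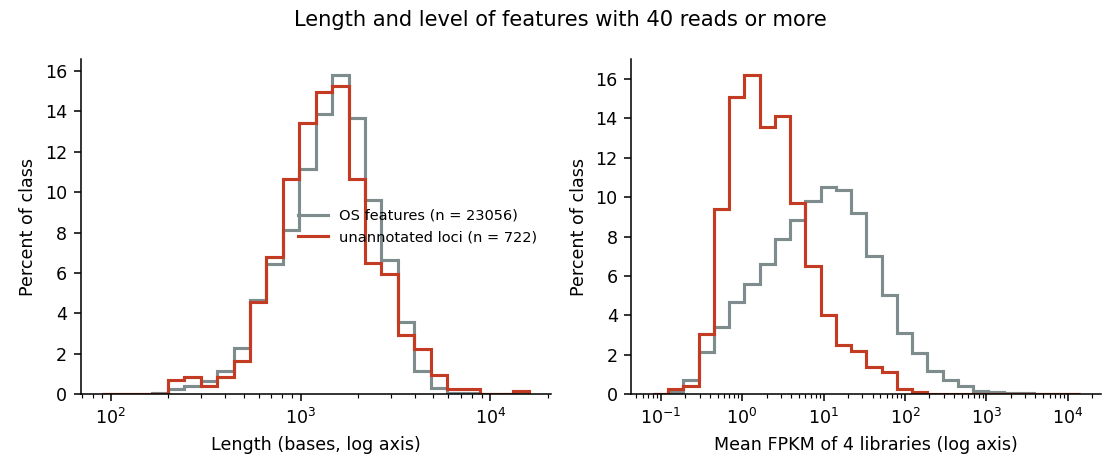
Length in bases (left, log axis) and mean FPKM of the 4 libraries (right, log axis) of the 722 unannotated loci and 23056 OS features with 40 reads or more, as the percent of each class per bin. The length curves nearly coincide, with medians of 1367 and 1483 bases, and the level curve of unannotated loci lies to the left, with medians of 1.91 and 9.25 FPKM.

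A small set of unannotated loci was abundant in both lines. The most abundant per length was Novel00174, a locus of 872 bases. It had 2298 and 2667 reads in the wild type libraries and 2347 and 2109 in bta1-1, or group means of 166 and 147 FPKM. Its libraries overlapped between the groups and it was not called (log2 fold change -0.22, SE 0.31, adjusted p = 0.811). Novel00474, of 1729 bases, had the most reads, with 3117 and 2368 in wild type and 2328 and 3364 in bta1-1, and its mean levels were 89.7 and 94.9 FPKM. Its log2 fold change was 0.03 (SE 0.26, adjusted p = 0.977). The next by mean FPKM were Novel00230 (930 bases, 99.1 FPKM in wild type and 101 in bta1-1), Novel00177 (487 bases, 81.1 and 74.9), Novel00859 (1523 bases, 81.7 and 64.6) and Novel00626 (922 bases, 76.0 and 65.6), and none of these 4 was called, with adjusted p = 0.498 to 0.989. Novel00874, Novel00811 and Novel00454 completed the 6 loci with the most reads, at 44.9, 66.2 and 48.0 FPKM in wild type and 43.0, 51.2 and 61.4 FPKM in bta1-1, also uncalled. A p that misses the threshold does not show that the lines were equal at these loci, and the log2 SEs of 0.23 to 0.31 give the width of what 2 libraries a group resolve.

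Some well-read loci had fold changes close to 0. Novel00230 had 1559 and 1624 reads in the wild type libraries and 1710 and 1544 in bta1-1 (log2 fold change -0.02, SE 0.28). Novel00412, of 4336 bases, had 476 and 266 reads against 289 and 436 (log2 fold change -0.02, SE 0.26), and Novel00176, of 772 bases, had 442 and 270 against 344 and 372 (log2 fold change 0.02, SE 0.23). The wild type and bta1-1 libraries overlapped at each of the 3 once scaled to library size.

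Unannotated loci took 0.540% and 0.570% of the counted reads in the wild type libraries and 0.507% and 0.493% in those of bta1-1. Both bta1-1 libraries lay below both wild type libraries, a difference in means of -0.0548 percentage points (0.555% ± 0.021 against 0.500% ± 0.00936, SD, n = 2). The exact two-sided permutation test gave p = 0.333, the smallest that 2 against 2 libraries allow. The 10 loci with the most reads held 19.2%, 18.9%, 21.8% and 20.2% of the unannotated reads in wild type 1, wild type 2, bta1-1 1 and bta1-1 2. Without them the share was 0.436% and 0.462% against 0.396% and 0.394%, with the same order of the groups.

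Between the lines, 53 unannotated loci were called, and 27 of these had reads in one line and few or none in the other. Of 717 loci tested, 23 (3.21%) were higher and 30 (4.18%) lower in bta1-1 at an adjusted p under 0.05, while the other 5 members did not pass the filter on low counts. Over all 24396 features tested, 2.77% were called higher and 2.64% lower, and among OS features with 40 reads 2.78% and 2.52%. Of the tested loci, 24 had under 10 reads in both wild type libraries and 35 in both bta1-1 libraries. These passed the filter mainly through the other line, where they had to be higher. The number called higher was 15 without wild type library 2, and 15 to 27 over the 4 fits that leave out 1 library. The number called lower was 23 to 41 over the same fits. In each of these fits 1 line has a single library, which is assumed to vary as the other line does, so a call kept there is weak support.

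Loci read in one line alone had 20 reads or more in both libraries of one line and 3 or fewer in both of the other, a definition with no test. There were 17 unannotated loci of this kind in wild type (2.35% of 722) and 10 in bta1-1 (1.39%). With at least 10 reads against 0 as the definition, the order turned to 10 in wild type and 13 in bta1-1. Over all features with 40 reads or more, 0.489% met it for wild type and 0.215% for bta1-1, and among OS features 0.429% (99 features) and 0.182% (42 features). At 100 to under 300 reads, the class that holds the median unannotated locus (194 reads), 1.63% of OS features and 5.13% of unannotated loci (12 of 234) were read in one line alone. The shares were 1.28% and 2.18% at 40 to under 100 reads, 0.683% and 2.92% at 300 to under 1000, and 0.0979% and 5.68%, or 5 of 88 loci, at 1000 or more. These are descriptions of 2 classes of features that were annotated in different ways, and no test of the difference was made. All 27 loci were also called by edgeR. They were chosen for few or no reads in one line and passed the filter through the other, so their calls and adjusted p follow from that choice and are given as description. Without them 13 loci were called higher and 13 lower, each 1.81% of those tested, against 2.6% and 2.09% of OS features. Of these 13 higher, 3 had no read in wild type and also passed the filter through bta1-1, where they had to be higher. Features of that kind were not taken out of either class, so these shares are a description too.

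**Figure D2:**
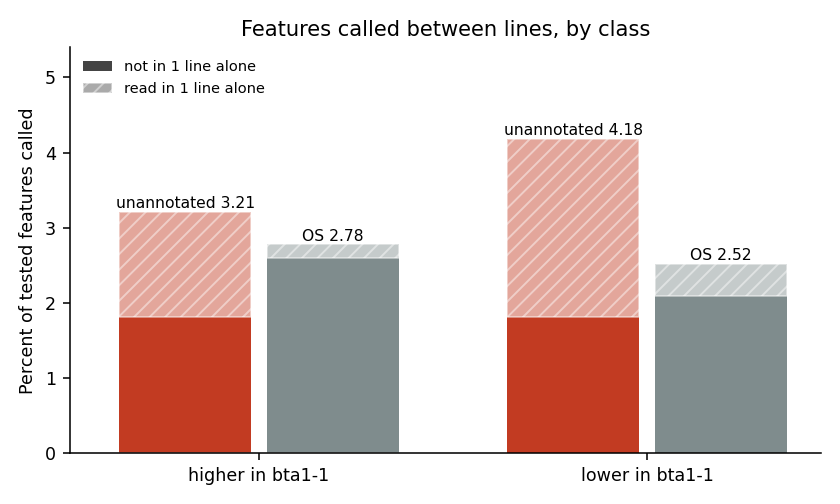
Percent of tested features called between lines at an adjusted p under 0.05 (y axis), by direction and class, for 717 unannotated loci and 22953 OS features, with the hatched part read in 1 line alone. The solid part is 1.81% in both directions for unannotated loci, and the hatched part brings them to 3.21% and 4.18%.

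In wild type alone, Novel00275 was the locus with the most reads. This locus of 1816 bases had 2330 and 1233 reads in the wild type libraries and 0 and 2 in bta1-1. Its mean was 54.0 FPKM against 0.0317 FPKM. Summed reads per counted read were 1740 times higher in wild type (95% exact interval 483 to 14400, counting error only; adjusted p = 3.31e-05). Novel00421, of 1361 bases, had 620 and 448 reads against none in either bta1-1 library, at least 174-fold higher in wild type when 3 reads per library are taken as the floor (adjusted p = 6.98e-05). At both loci each wild type library lay far above the limit of 20 reads.

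Novel00567 (851 bases) had 562 and 687 reads in the wild type libraries and 1 and 2 in bta1-1, a ratio of 408 (139 to 1980). Novel00146 was the shortest of the 17, at 362 bases, and the highest per length, at 83.5 FPKM in wild type, with 489 and 549 reads against 3 and 2. At the other end of length, Novel00120 covered 5885 bases at 1.54 FPKM in wild type, with 185 and 136 reads against 0 and 1. The 17 loci ran from 362 to 5885 bases, with a median of 1159.

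The remaining named loci of wild type had fewer reads. Novel00150 (2781 bases) had 151 and 165 reads against 3 and 0. Novel00352 (1157 bases) had 158 and 121 against none, at least 45.6-fold higher in wild type, and Novel00590 (874 bases) had 133 and 100 against 0 and 1. Novel00145 (1620 bases) had 84 and 43 reads against 1 and 2, and Novel00110 (967 bases) had 80 and 75 against 0 and 2. Scaled to library size, wild type libraries 1 and 2 stood at 4.04 and 3.0 CPM at Novel00145. At Novel00110 they stood at 3.84 and 5.23 CPM. The adjusted p of the 17 loci ran from 3.31e-05 to 0.00886, and 6 of them had no read in either bta1-1 library.

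In bta1-1 alone, Novel00143 stood apart by its level. It had 0 and 3 reads in the wild type libraries and 2248 and 1981 in bta1-1 over 1236 bases, a mean of 0.0804 FPKM against 98.6 FPKM. That level would place it among the most abundant unannotated loci of either line, next to Novel00230 at 101 FPKM in bta1-1. The ratio of summed reads per counted read was 1440 (95% exact interval 492 to 6980, counting error only; adjusted p = 6.93e-05).

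Second in reads was Novel00872 (3169 bases), with 1 and 0 in wild type and 233 and 362 in bta1-1 (ratio 608, interval 109 to 24000). Novel00060, of 4012 bases, had none against 246 and 279, at least 87.4-fold higher in bta1-1, and Novel00364, of 731 bases, had none against 135 and 185, at least 53.3-fold higher. Per length Novel00364 was the higher of these, at 12.6 FPKM in bta1-1 against 3.77 FPKM for Novel00060 and 5.41 FPKM for Novel00872.

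Further loci of this kind had under 200 reads in all. Novel00188 (1364 bases) had 54 and 138 reads in bta1-1, Novel00200 (4042 bases) had 76 and 107, Novel00774 (1374 bases) had 77 and 100, and Novel00119 (1478 bases) had 45 and 67, each with no read in wild type. Novel00292 (1230 bases) had 1 and 0 against 91 and 78, and Novel00873 (1022 bases), at the limit of the definition, had none against 20 and 33. Of the 10 loci, 7 had no read in wild type, and adjusted p ran from 6.93e-05 to 0.0114. In the line where they were read, the median level was 3.87 FPKM for the 10 loci of bta1-1 and 3.3 FPKM for the 17 of wild type.

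**Figure D3:**
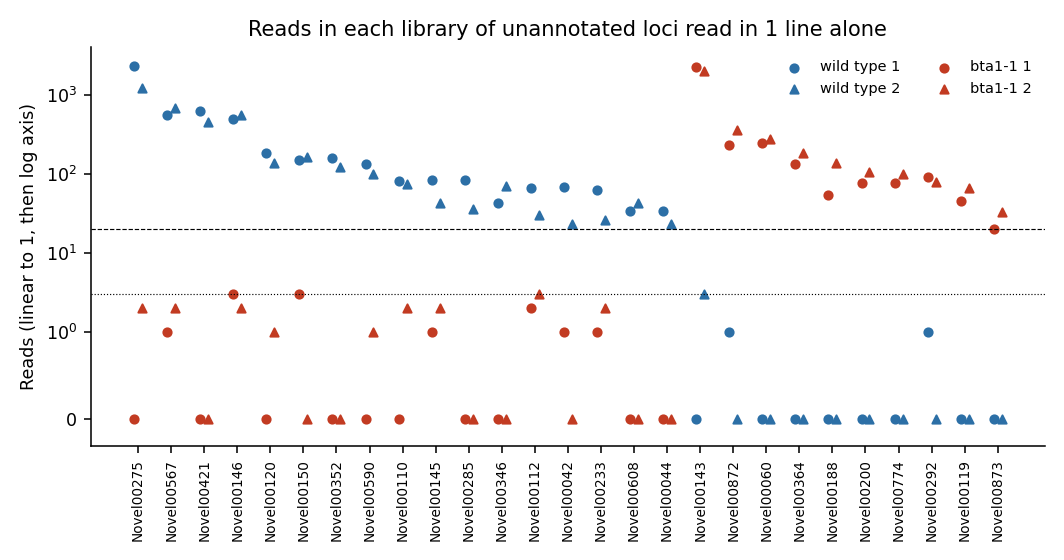
Reads in each of the 4 libraries (y axis, linear to 1 and then log) of the 27 unannotated loci read in 1 line alone (x axis, 17 of wild type and then 10 of bta1-1, each by falling sum). Blue is wild type and red bta1-1, circles are replicate 1 and triangles replicate 2, and the lines at 20 and 3 reads mark the definition, with no point between them.

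A second group of 26 called loci did not meet that definition, and most of them were read in both lines. Among the 13 higher, 3 had no read in wild type and too few in bta1-1 to meet it, and the 9 with more than 6 reads in each line rose 3.29-fold to 14.0-fold. Among the 13 lower, the 11 with more than 6 reads in each line fell 3.82-fold to 19.6-fold. The loci described next were picked after their values were seen, as those with the most reads in each direction.

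Novel00763, of 1110 bases, was the most abundant of the 26. It had 419 and 430 reads in the wild type libraries and 3181 and 1075 in bta1-1, a rise from 25.1 ± 6.98 to 124 ± 93.6 CPM (SD, n = 2; 4.97-fold, adjusted p = 0.0366). Its bta1-1 libraries differed more from each other than its wild type libraries, although both lay above wild type, and without wild type library 1 the adjusted p was 0.079. The log2 fold change of 2.31 became 1.22 without bta1-1 library 1 and 2.96 without bta1-1 library 2. Novel00095 (2168 bases) rose 14.0-fold on 18 and 7 reads against 257 and 79 (adjusted p = 0.0172; log2 fold change 3.81). It was called in each fit that left out 1 library, but the size rested on single libraries: leaving out bta1-1 library 1 brought it to 2.61, and leaving out bta1-1 library 2 to 4.49, on the log2 scale. Novel00446 (1976 bases) rose 3.29-fold on 33 and 26 reads against 77 and 121 (adjusted p = 0.0452). That call was lost without wild type library 1 (adjusted p = 0.158), wild type library 2 (0.103) or bta1-1 library 2 (0.192).

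Of the loci lower in bta1-1, Novel00147 (1620 bases) fell from 12 ± 0.663 to 2.26 ± 0.401 CPM (SD, n = 2) on 239 and 178 reads against 33 and 47, a 5.26-fold difference (adjusted p = 0.00558), and it stayed called without each library in turn. Novel00781 (1394 bases) fell 4.38-fold on 441 and 179 reads against 44 and 93 (adjusted p = 0.0225), and Novel00697 (1231 bases) fell 3.82-fold on 413 and 184 against 67 and 84 (adjusted p = 0.0136). Without wild type library 1 these were at adjusted p = 0.0607 and 0.0508. Novel00289 (1431 bases) fell 4.56-fold on 204 and 56 reads against 26 and 27 (adjusted p = 0.0441), and lost the call without wild type library 1 (0.233) or bta1-1 library 2 (0.0702). Its log2 fold change of -2.19 became -1.37 without wild type library 1.

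**Figure D4:**
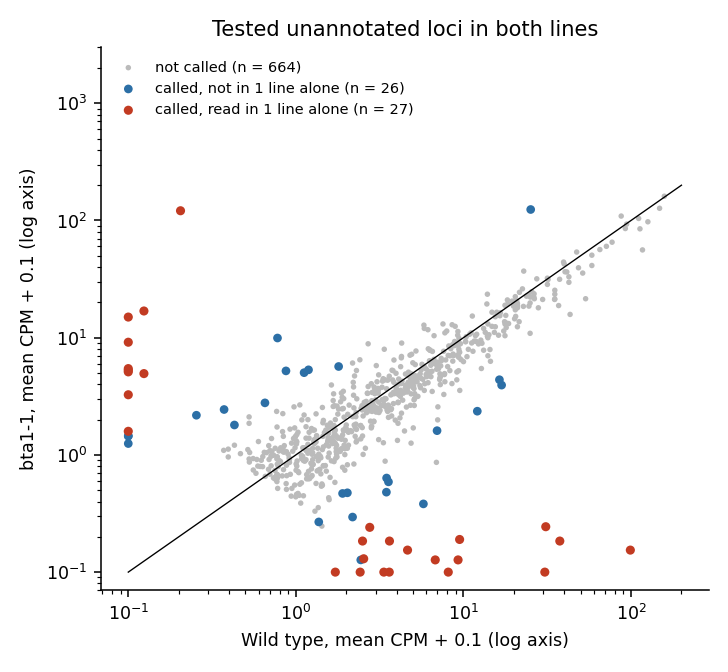
Mean CPM + 0.1 in wild type (x axis, log) and bta1-1 (y axis, log) of the 717 tested unannotated loci, with the diagonal marking equal levels. Grey points were not called (664), blue were called and not read in 1 line alone (26), and red were read in 1 line alone (27), along the axes at 0 or few reads in the other line.

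The fold changes of the tested unannotated loci, called ones included, lay mostly below 0. Their median log2 fold change was -0.21, against -0.01 for OS features, and it was below 0 at 471 of 717 loci (65.7%) against 50.5% of OS features. With loci at 0 reads in a line set at their bound of 3 reads, the median was also -0.21. The groups did not overlap, with bta1-1 lower, at 207 loci (28.9%) and, with bta1-1 higher, at 111 (15.5%), where the shares over all features tested were 23.2% and 23.7%. By depth the median was -0.21 for loci of 40 to under 100 reads, -0.20 for 100 to under 300, -0.24 for 300 to under 1000 and -0.21 for 1000 or more, while OS features in the same order had 0.02, 0.06, 0.03 and -0.03. The 26 loci under 500 bases had a median of -0.41, and those of 2000 bases or more -0.18, where OS features had -0.06 and 0.01. Replicates of one line differed at these 26 loci by a median of 0.63 (log2, absolute) in wild type and 0.69 in bta1-1.

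Single libraries moved this median. Leaving out wild type library 2 gave -0.09 and leaving out wild type library 1 gave -0.29. The fits that left out bta1-1 library 2 or 1 gave -0.13 and -0.30. Taken as pairs of libraries on log2(CPM + 0.1), the median unannotated difference was -0.04 between wild type 1 and bta1-1 1, with 51.9% of loci lower in bta1-1. It was -0.19 between wild type 1 and bta1-1 2 and -0.21 between wild type 2 and bta1-1 1. It was -0.34 between wild type 2 and bta1-1 2, with 64.7% lower. Within wild type the median of library 1 minus library 2 was -0.14 on the same scale, and within bta1-1 library 1 minus library 2 came to 0.07. In size, 1 of the 4 pairs between lines was smaller than the difference within wild type, and the other 3 were larger.

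**Figure D5:**
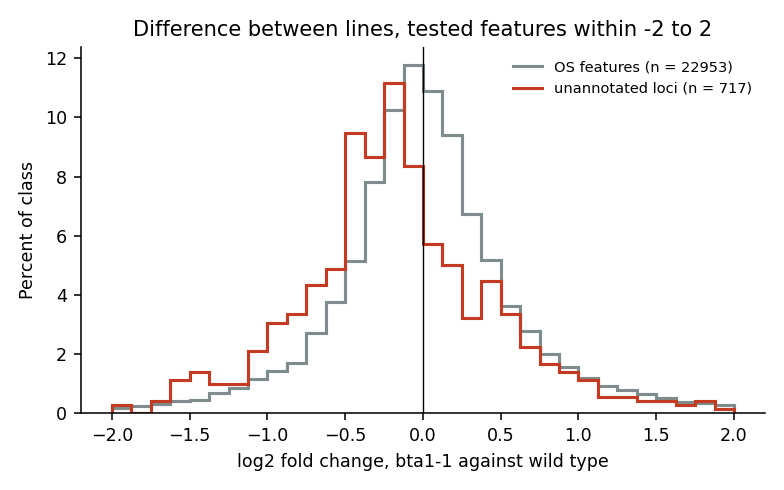
Log2 fold change of bta1-1 against wild type (x axis, shown from -2 to 2) of 717 unannotated loci and 22953 OS features, as the percent of each class per bin (y axis). The unannotated curve spans 0 and is shifted to the left of the OS curve, with a median of -0.21 against -0.01.

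Replicates of one line differed by a median of 0.45 (log2, absolute) at unannotated loci in wild type and 0.43 in bta1-1, against 0.31 and 0.33 at OS features. At 40 to under 100 reads the unannotated values were 0.48 and 0.54 and the OS values 0.54 and 0.51. At 1000 reads or more they were 0.38 and 0.33 at unannotated loci and 0.25 and 0.27 at OS features. The widest gaps between replicates among loci with at least 1000 reads were at Novel00021 (4328 bases), with 194 and 581 reads in the wild type libraries and 236 and 138 in bta1-1, and at Novel00524 (1337 bases), with 819 and 969 in wild type and 574 and 156 in bta1-1. Neither was called (adjusted p = 0.356 and 0.259). At Novel00021 the log2 fold change was -1.20 with all libraries, -1.90 without wild type library 1 (adjusted p = 0.0108) and 0.21, the other direction, without wild type library 2 (adjusted p = 0.93). At Novel00524 it was -1.32 with all libraries, -2.66 without bta1-1 library 1 (adjusted p = 0.000261) and -0.60 without bta1-1 library 2 (adjusted p = 0.585).

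The longest and shortest loci were not called. Novel00730 spanned 14022 bases at 0.322 FPKM in wild type and 0.179 in bta1-1, on 154 and 22 reads against 37 and 50, and its log2 fold change of -0.88 turned to 0.68 without wild type library 1. Novel00548, of 8721 bases, had 1246 and 380 reads against 214 and 344 (log2 fold change -1.46, SE 0.38, adjusted p = 0.0697), and the log2 fold change was -1.93 without wild type library 2 (adjusted p = 0.00428) and -0.76 without wild type library 1 (adjusted p = 0.297). Novel00019, of 8080 bases, had 392 and 343 reads against 215 and 266 (log2 fold change -0.65, adjusted p = 0.211). The shortest were Novel00843 at 206 bases, with 88 and 81 reads against 71 and 61, Novel00851 at 212 bases, with 12 and 4 against 13 and 14, and Novel00297 at 224 bases, with 17 and 29 against 11 and 11. The median length was 1361 bases for called and 1369 for uncalled loci, and their median sums were 170 and 198 reads.

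At the threshold of 40 reads, the first loci inside were Novel00121 (0 and 0 reads in wild type, 24 and 16 in bta1-1), Novel00216 (17 and 2 against 10 and 11) and Novel00258 (13 and 7 against 5 and 15). Just outside, with a sum of 39, were Novel00111 (20 and 19 against 0 and 0), Novel00298 (21 and 3 against 5 and 10) and Novel00319 (9 and 11 against 10 and 9).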

How the data were processed

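RNA was measured in 4 seedling libraries, 2 of wild type and 2 of bta1-1, grouped by their labels. The authors deposited raw read counts per feature and, in a second table, FPKM values scaled for length and library size. Length, obtained by dividing each count by its FPKM and the column total, was whole within 0.01 base in 100% of 123342 values. Per the submitters' processing notes the build was IRGSP-1.0, and the tools named without role were TopHat2 2.0.12, Bowtie2 2.2.3 and HTSeq 0.6.1. How the unannotated loci were assembled, from which libraries, and the strand setting were not stated in these sources, so reads of a locus and of an overlapping or antisense gene cannot be told apart, and loci with near-identical copies are uncertain. Positions and sequences of the unannotated loci were not used here.

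All features were tested together with edgeR 4.0.16 in R 4.3.3 (TMM, filterByExpr with minimum count 10 and minimum total 15, robust quasi-likelihood test of the group, two-sided, with p-values adjusted by Benjamini-Hochberg over 24396 features), and the procedure was tested on simulated data. CPM are TMM-scaled, and an SE is the size of the log2 fold change over the root of its F statistic. Ratios at few reads are of summed reads per counted read with exact binomial 95% intervals. Intervals and floors of 3 reads cover counting error only. Replicates were not copies of one library (chi-square 26.4 and 36.5 per degree of freedom). DESeq2 1.42.0, limma 3.58.1 on log2(FPKM + 1) or + 0.1, other filters, scalings, thresholds, blocks and left-out libraries were tried.

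Members, lists and tests were chosen with earlier results of these data known. Loci were named by a rule: 10 called loci per direction with the smallest p and no overlap of groups, up to 8 per direction read in one line alone with the most reads, the 6 highest in FPKM and in reads, the 3 longest and shortest, the 3 with the smallest change and the 2 with the widest replicate gap among 88 with at least 1000 reads, and 3 on each side of the threshold.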

Additional observations from a re-analysis of the deposited data

Results flagged for a closer look

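Features outside the comparison were also called, in both directions. Of 33 unannotated loci under 40 reads that passed the filter on low counts, 3 were called higher in bta1-1 by edgeR with adjusted p = 0.016 to 0.0292: Novel00425 (0 and 0 reads in wild type, 16 and 21 in bta1-1), Novel00498 (0 and 0 against 20 and 13) and Novel00149 (1 and 0 against 17 and 13). These 3 had 0 or 1 read in each wild type library and passed the filter through bta1-1, where they had to be higher. A further 6 were called lower, and these passed it through wild type, with 0 or 1 read in each bta1-1 library. The calls and adjusted p of both sets follow largely from the filter and are given as description. Among the 53250 features with another kind of identifier (EPlOSAG), of which 397 were tested, 3 were called higher and 11 lower. Over all 24396 features tested, 2.77% were called higher and 2.64% lower. The 3 EPlOSAG features called higher had 4 or fewer reads in each wild type library and also passed the filter through bta1-1. The one with the most reads, EPlOSAG00000004055 of 111 bases, had 4 and 1 reads in the wild type libraries and 83 and 61 in bta1-1 (edgeR adjusted p = 0.00386). No description in the files says what these features are.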

How the results depend on the processing

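For the 27 loci chosen as read in one line alone, a call kept in the 4 fits without a library follows from that choice. The line left with 1 library is assumed there to vary as the other does. No called locus turned direction under any alternative run, while some uncalled ones did. Against 23 higher and 30 lower, the counts were 36 and 56 for features with at least 1 read, 4 and 7 by limma on log2(FPKM + 1) over all features, and 14 higher with the replicate block. Equal replicate numbers did not pair the libraries (correlation of deviations across features -0.416), and a crossed replicate block, chosen after seeing the data, gave 45 higher and 73 lower. Without a library the number higher was 15 to 27. The median log2 fold change was -0.30 to -0.09 without a library and -0.11 by limma on log2(FPKM + 1), with or without the filter. With at least 10 reads against 0, 10 loci had reads in the wild type libraries only and 13 in those of bta1-1 only, in place of 17 and 10, and with at least 50 reads against at most 3 these were 9 and 8. Thresholds of 20 and 100 reads gave median lengths of 1272 and 1531 bases and levels of 1.56 and 3.19 FPKM. The causes of these shifts were not tested. At 40 to under 100 reads, 2 libraries a group resolve large differences only.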

Other observations

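Called unannotated loci often had identifiers close to each other. The identifiers run from 1 to 880, and the sources used here do not say what order they follow. Of the 53 called members, 29 (54.7%) had another called member within 3 numbers, against 164 of 664 tested members that were not called (24.7%). In the 40 consecutive numbers that hold the most called loci, 108 to 147, 11 of 35 tested members were called, 8 lower and 3 higher in bta1-1, against 42 of 682 elsewhere. This range was picked for its calls, so its share is a description. That range holds Novel00143, read in bta1-1 alone, and Novel00145 and Novel00146, read in wild type alone. It also holds 3 called loci under the threshold, Novel00111, Novel00114 and Novel00117, each with no read in bta1-1. These 3 passed the filter on low counts through wild type alone. Whether loci of near numbers lie near each other in the genome, or share reads, was not tested.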
